A study of Homo sapiens with 6 samples.

Results

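Kinesins are a family of microtubule motor proteins, most of which walk along microtubules. In the expression table of this pancreatic cancer study 42 kinesin genes were listed among the 58302 genes. They were taken as the protein-coding rows whose symbol is KIF with a number, or KIFC1 to KIFC3. The rule reads only symbol and gene type. By textbook role 14 were counted as mitotic, 15 as transport and 13 as other kinesins. The cells were Hs766T, an established line from a human ductal adenocarcinoma of the pancreas, named so in the cell line label and spelled HS7666T in the sample titles. The 3 libraries of one group came from cells overexpressing DDX18 (genotype ex-DDX18), a nucleolar RNA helicase of ribosome assembly. The 3 control libraries carry the name plvx in their titles and the genotype WT. Both groups are labelled as tumour cells of pancreas. Whether the overexpressing line is a clone or a pool is not given in the sources used here. The series describes 3 repeats of the sequencing per group, and no label names separate cultures. Each p-value therefore reflects only how far these libraries vary, and that variation may be technical.

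Libraries for mRNA were made from extracted total RNA, and counts summed to between 15911875 and 16207995 per library. DDX18 was at 187.2, 197.4 and 176.9 CPM (counts scaled to a common library size) in the DDX18 libraries and at 89.4, 82.4 and 98.3 CPM in the controls, in the direction of the labels. The epithelial keratins KRT8 and KRT18 were high (means of 2057 and 855.8 CPM with DDX18, 1993 and 1046 CPM in controls), while CDH1 was near 2 CPM and KRT19 was too low to test. KRT18 was lower and CLDN7 higher in all DDX18 libraries than in all controls (CLDN7 means of 28.97 and 20.7 CPM). Of 6 acinar markers 5 had no count in any library, as did 4 of 8 endocrine and neuronal, 2 of 5 immune and 2 of 4 endothelial markers. Counts were enough to test the neuronal SYP, the immune CD68 and the endothelial VWF. Their means over all libraries were 0.694, 3.77 and 5.45 CPM, with overlapping groups. None of the 6 fibroblast markers was at 0 in all libraries, but COL3A1 and LUM were too low to test. Of the 4 tested, DCN and ACTA2 had means of 10.5 and 0.510 CPM over all libraries, with overlapping groups. PDGFRB had means of 105.0 ± 2.27 (DDX18) and 91.6 ± 4.15 CPM (control), and COL1A1 of 55.1 ± 3.17 and 66.8 ± 4.39 CPM (SD, n = 3). Both were without overlap and in opposite directions. No marker tested passed the threshold, and their part in the kinesin values was not tested. The comparison asks how high DDX18 relates to the kinesin genes, and whether mitotic and transport members differ in this.

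Kinesins share a motor domain, which in most members splits ATP and steps along the microtubule lattice. The depolymerases take microtubules apart instead, and KIF26A is without motor activity. Mitotic kinesins build the spindle, align chromosomes and complete cell division, and most are made in G2 and mitosis, so that their RNA marks cycling cells. Transport kinesins carry vesicles, organelles and RNA along interphase microtubules in every phase, often through light chains or adaptors. In promoters of many G2 and mitosis genes the CHR element and CCAAT boxes are known binding sites of the DREAM and MuvB complexes and of NF-Y.

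The promoters of 6 kinesins are shown because these genes mark the groups of the results: KIF20A, the highest mitotic member per merged exon length; KIF20B, KIF14 and KIF11, the mitotic members with the smallest p; and the transport members KIF1C, the most counted, and KIF5B, with the smallest p. Each line holds the 150 bases before the RefSeq start on the gene's own strand, 5′ to 3′, from GRCh38.p14. Capitals mark CCAAT boxes (CCAAT or its complement ATTGG) and CHR elements (TTTGAA or TTCGAA, or the complement TTCAAA). The windows are chr5:138178962-138179111, chr10:89701440-89701589, chr10:92592980-92593129 and chr17:4997800-4997949 on the plus strand, and chr1:200620752-200620901 and chr10:32056426-32056575 on the minus strand. RefSeq starts can differ from the gene starts in the deposited table.
KIF20A: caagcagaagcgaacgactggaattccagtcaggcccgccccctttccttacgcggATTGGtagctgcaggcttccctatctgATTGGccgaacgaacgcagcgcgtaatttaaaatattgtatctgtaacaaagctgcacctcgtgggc
KIF20B: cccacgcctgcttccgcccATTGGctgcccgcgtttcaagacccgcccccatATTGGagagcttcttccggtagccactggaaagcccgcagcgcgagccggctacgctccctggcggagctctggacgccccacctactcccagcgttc
KIF14: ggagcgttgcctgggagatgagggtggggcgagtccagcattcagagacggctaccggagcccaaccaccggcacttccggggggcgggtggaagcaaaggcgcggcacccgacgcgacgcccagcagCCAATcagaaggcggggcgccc
KIF11: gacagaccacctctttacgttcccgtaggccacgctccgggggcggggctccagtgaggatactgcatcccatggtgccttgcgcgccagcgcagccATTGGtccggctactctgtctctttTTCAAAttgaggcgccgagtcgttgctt
KIF1C: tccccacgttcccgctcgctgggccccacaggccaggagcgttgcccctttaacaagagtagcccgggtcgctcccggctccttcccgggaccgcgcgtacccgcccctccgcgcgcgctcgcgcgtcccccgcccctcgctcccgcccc
KIF5B: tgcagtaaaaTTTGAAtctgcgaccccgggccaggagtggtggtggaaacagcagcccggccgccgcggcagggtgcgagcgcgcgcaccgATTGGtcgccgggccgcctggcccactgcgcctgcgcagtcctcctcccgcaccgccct

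KIF20A had CCAAT boxes 94 and 67 bases before its start. The same box lay 131 and 98 bases before the start of KIF20B, whose CHR elements lay 24 and 30 bases after it, outside the printed stretch. In KIF14 a CCAAT box lay 22 bases before the start and a CHR element 1 base after it. The CHR element of KIF11 was 28 and its CCAAT box 53 bases before the start. KIF5B held a CHR element 140 and a CCAAT box 59 bases before its start, and KIF1C held neither motif.

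Counted over the whole window of 250 bases before to 50 after the start, on both strands, a CHR element was in 11 of 14 mitotic promoters (78.6%), in 1 of 11 transport promoters (9.09%) and in 1 of 9 other promoters (11.1%). It was in 16.6% of all 27305 promoters of the same length. A CCAAT box was in 11 of 14 mitotic (78.6%), 3 of 11 transport (27.3%) and 3 of 9 other promoters (33.3%), against 35.7% of all. Both motifs together were in 10 of 14 mitotic promoters (71.4%), 1 of 11 transport promoters (9.09%, KIF5B) and 6.58% of all. A RefSeq promoter was matched by symbol for 34 of the 42 genes. A match is a description of the letters in this window and not of a bound site.

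Of the 42 kinesins, 33 had counts enough to test, 13 of 14 mitotic, 12 of 15 transport and 8 of 13 other members. KIF2B, a mitotic depolymerase, KIF5A, a neuronal heavy chain of conventional kinesin, and KIF6, KIF19 and KIF25 had 0 counts in all 6 libraries. A count of 0 allows up to 3 counts, which is 0.185 to 0.189 CPM per library, and such limits cover counting error only. The neuronal motors KIF1A and KIF5C had 1 and 4 counts over all libraries. KIF12 had 0, 4 and 4 counts in the DDX18 libraries and 5, 0 and 0 in the controls. KIF27 had 7, 7 and 20 counts against 7, 14 and 7.

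Per kilobase of merged exon length the kinesins ran from 77.0 CPM per kb for KIF26A to 0.0760 CPM per kb for KIF26B, as means of all 6 libraries. KIF26A, an atypical member without motor activity, was followed by KIF1C, a vesicle and RNA carrier, at 74.8 CPM per kb. The mitotic KIF20A and KIF2C came next at 65.8 and 64.9 CPM per kb. Neighbours among these 4 overlapped in their ranges over the libraries. KIFC1 (50.1) and KIF22 (48.2 CPM per kb) overlapped each other and lay below those 4.

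The transport motor KIFC3 stood apart from both neighbours in this order at 32.9 CPM per kb. KIF18B (22.95) and KIF4A (21.2 CPM per kb) overlapped, and KIF3B, KIF11, KIF5B and KIF23 formed an overlapping run from 15.45 down to 12.2 CPM per kb. From KIF13A at 5.46 CPM per kb to KIF4B at 0.156 CPM per kb the other members lay lower, and most neighbours overlapped. The order rests on the length used. Per kilobase of the longest coding transcript KIFC3 came first at 92.2 CPM per kb, and KIF26A came sixth at 77.5 CPM per kb.

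**Figure D1:**
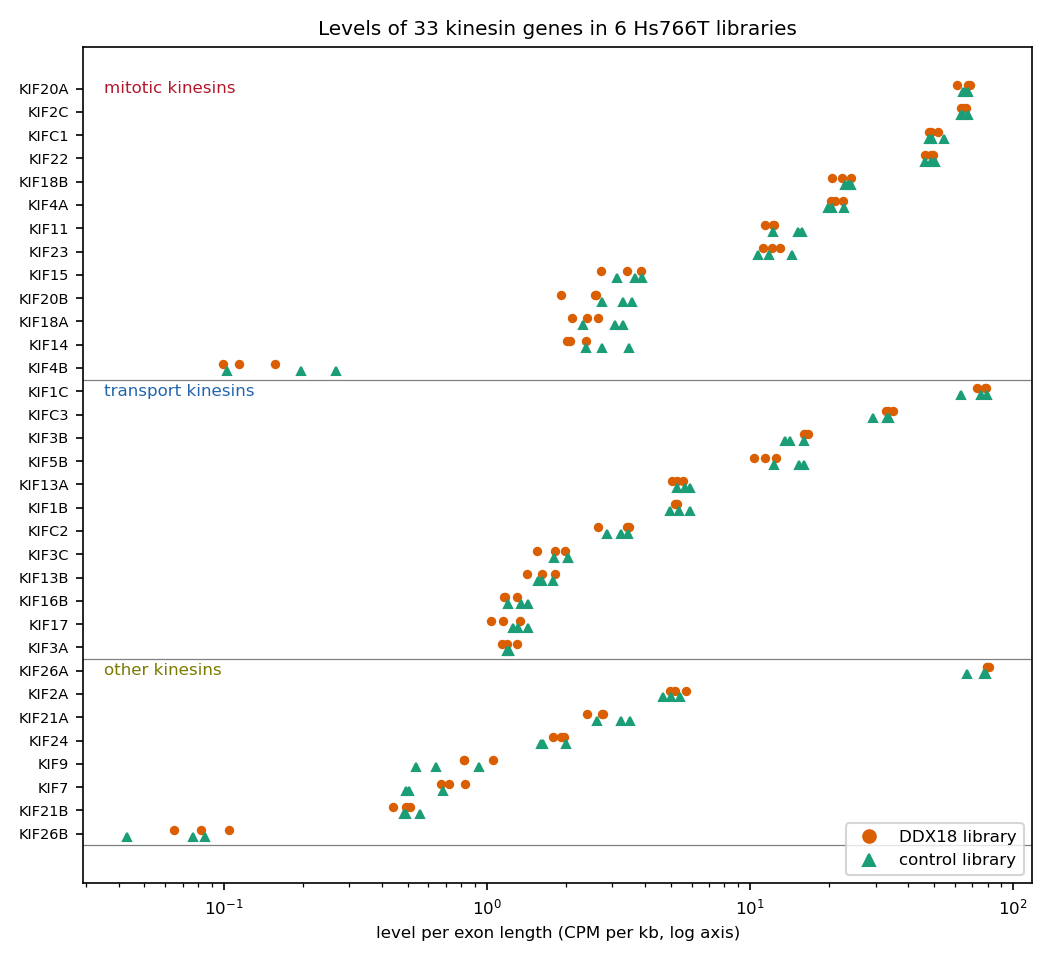
Level of each of the 33 tested kinesins in every library, as CPM per kilobase of merged exons on a log axis, with circles for DDX18 and triangles for control libraries. Means run from 65.8 (KIF20A) to 0.156 CPM per kb (KIF4B) in mitotic, from 74.8 (KIF1C) to 1.21 CPM per kb (KIF3A) in transport and from 77.0 (KIF26A) to 0.0760 CPM per kb (KIF26B) in other members, and the symbols of both groups lie close together in most rows.

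With DDX18 overexpression no kinesin passed an adjusted p of 0.05 in edgeR, and the smallest adjusted p of the 33 was 0.841. Over all genes 8 of 15144 passed (0.0528%). At an unadjusted p under 0.05 there were 4 kinesins, KIF20B, KIF14, KIF11 and KIF5B, all 4 lower with DDX18. Such genes made up 5.69% of all tested in either direction and 3.19% in the lower direction. The groups did not overlap in 3 kinesins, 2 of them lower with DDX18 (KIF20B and KIF14) and 1 higher (KIF26A). Non-overlap held for 11.5% of all genes, and for 5.71% with DDX18 lower. A negative log2 fold change was found in 22 of 33 kinesins, against 50.2% of all genes, and with scaling by totals alone 29 of the 33 kept their sign. The median log2 fold change was -0.03 for the kinesins and -0.00 for all genes. In bulk RNA, fewer cells of a type and less RNA per cell cannot be told apart.

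**Figure D2:**
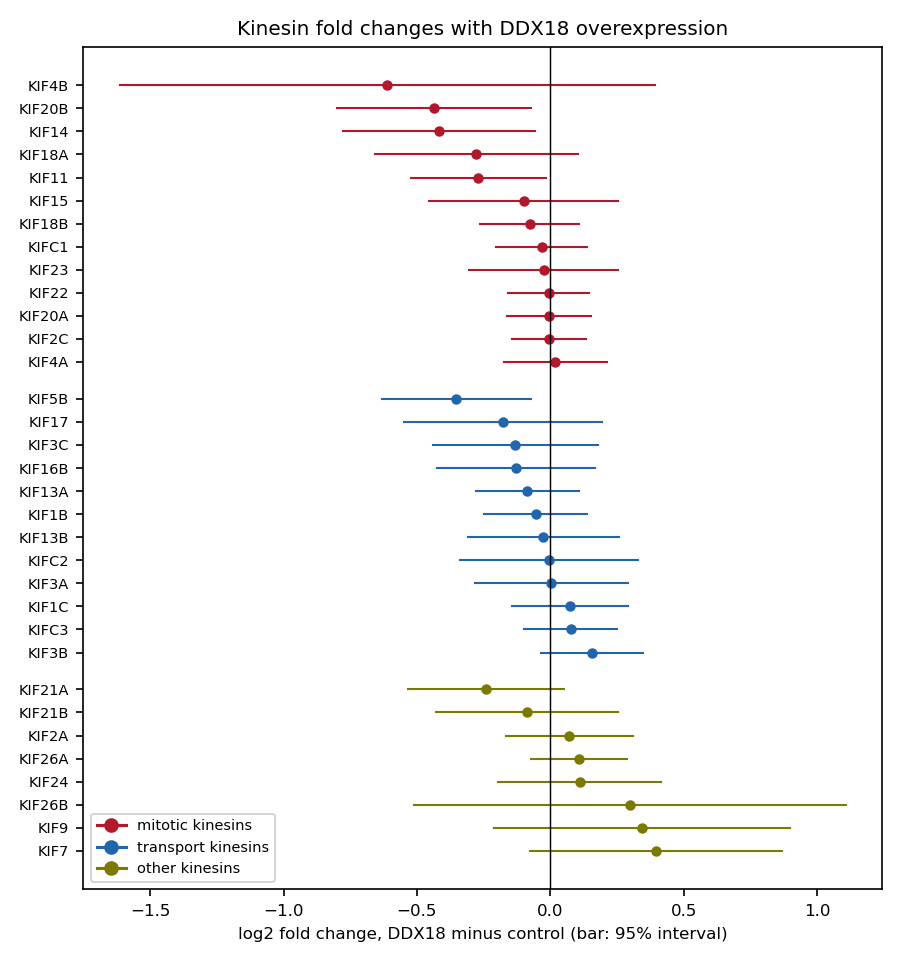
Log2 fold change of each tested kinesin, DDX18 minus control, with bars for the 95% confidence interval from the edgeR fit and colours for the roles. The bars of KIF20B, KIF14, KIF11 and KIF5B lie below 0 before adjustment, and the widest bars belong to the low genes KIF4B and KIF26B.

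Among mitotic members KIF4B, KIF20B, KIF14, KIF18A and KIF11 had the most negative log2 fold changes, and KIF4A had the 1 positive value. KIF20B (ENSG00000138182, chr10:89701610-89774939, plus strand), which takes part in cytokinesis, measured 17.6, 17.8 and 13.1 CPM in the DDX18 libraries and 18.8, 24.4 and 22.5 CPM in the controls. All DDX18 libraries lay below all controls, DDX18 replicate 1 and 2 narrowly. The means were 16.2 ± 2.64 and 21.9 ± 2.86 CPM (SD, n = 3), a log2 fold change of -0.44 with an interval of -0.80 to -0.07 (edgeR adjusted p = 0.841).

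KIF14 (ENSG00000118193, chr1:200551497-200620734, minus strand), a partner of citron kinase at the midbody, was at 15.1, 17.3 and 14.6 CPM with DDX18 and 17.4, 25.3 and 20.01 CPM in controls. The highest DDX18 library nearly reached the lowest control, and control replicate 2 was highest. Its log2 fold change was -0.42 (interval -0.78 to -0.06, edgeR adjusted p = 0.841), and -0.26 without control replicate 2. KIF11 (ENSG00000138160, chr10:92593286-92655395, plus strand), the tetrameric motor that slides spindle poles apart, measured 59.7, 59.5 and 55.5 CPM with DDX18 and 59.7, 76.8 and 74.3 CPM in controls. Control replicate 1 sat among the DDX18 libraries, and control replicates 2 and 3 were high. The log2 fold change was -0.27 (interval -0.52 to -0.02, edgeR adjusted p = 0.860).

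KIF18A, which damps chromosome oscillations at the metaphase plate, was also highest in control replicates 2 and 3, at 11.2, 12.4 and 9.87 CPM with DDX18 and 10.8, 15.4 and 14.3 CPM in controls. The groups overlapped through control replicate 1, and the log2 fold change was -0.28 (interval -0.66 to 0.10, edgeR adjusted p = 0.870). KIF4B had the most negative value at -0.61, but it was at most 1.17 CPM in every library and its interval ran from -1.61 to 0.39. KIF4B is an intronless copy of KIF4A, so their reads may not be separable.

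The abundant mitotic kinesins lay close to equality. KIF20A, which brings the chromosomal passenger complex to the central spindle, measured 271.1, 241.7 and 267.2 CPM with DDX18 and 259.4, 255.8 and 267.6 CPM in controls. KIF2C, a microtubule depolymerase at centromeres, measured 236.9, 230.7 and 240.7 against 235.8, 230.4 and 244.5 CPM. KIF22, a chromosome-arm motor, was at 210.2, 199.2 and 213.2 against 216.6, 209.2 and 199.5 CPM. In all 3 genes the groups overlapped, and the sign of these values turned with scaling by totals alone. Their log2 fold changes were -0.01, -0.00 and -0.01 in that order, with intervals of -0.16 to 0.15, -0.14 to 0.13 and -0.16 to 0.14 (edgeR adjusted p = 0.996 or more).

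KIFC1, a minus-end motor that clusters spindle poles, was at 160.7, 163.7 and 172.5 CPM with DDX18 and 183.1, 164.7 and 160.7 CPM in controls. Its groups overlapped as well (log2 fold change -0.03, interval -0.21 to 0.14, edgeR adjusted p = 0.977). Of the remaining mitotic motors, KIF4A, a chromosome and midzone motor, had means of 96.6 ± 5.25 and 95.4 ± 7.21 CPM. KIF23, a motor of the central spindle, had 79.7 ± 5.70 and 81.1 ± 12.5 CPM. KIF18B, which shortens astral microtubules, had 104.0 ± 8.46 and 109.7 ± 3.03 CPM, and KIF15, a backup of KIF11, 17.5 ± 3.03 and 18.8 ± 2.03 CPM (SD, n = 3 each, DDX18 first).

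Transport kinesins were led by KIF5B (ENSG00000170759, chr10:32009010-32056431, minus strand), the heavy chain of conventional kinesin outside neurons, which carries mitochondria and lysosomes. It measured 67.2, 73.5 and 60.8 CPM with DDX18 and 72.6, 90.2 and 94.3 CPM in controls. Control replicate 1 lay inside the DDX18 range and the other controls above it. The log2 fold change was -0.35 (interval -0.63 to -0.07), with the smallest unadjusted p of all kinesins and an edgeR adjusted p of 0.841.

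KIF3B, a subunit of the heterotrimeric motor of cilia and melanosomes, was at 101.6, 97.9 and 98.6 CPM with DDX18 and 83.1, 86.5 and 98.04 CPM in controls. Control replicate 3 reached the DDX18 range, and the log2 fold change was 0.16 (interval -0.04 to 0.35, edgeR adjusted p = 0.860). Its partner KIF3A was level between the groups at 8.30 ± 0.566 and 8.28 ± 0.0884 CPM, and KIF3C was at 11.4 ± 1.40 and 12.5 ± 0.842 CPM.

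KIF1C (ENSG00000129250) was the most counted kinesin, at 626.5, 671.6 and 675.3 CPM with DDX18 and 684.5, 647.1 and 543.6 CPM in controls. Its control replicate 3 was the lowest library and control replicate 1 the highest, so the groups overlapped (log2 fold change 0.07, interval -0.14 to 0.29), and without control replicate 3 the value was -0.0217. KIFC3, a minus-end motor of epithelial junctions, measured 315.5, 321.5 and 336.1 against 325.2, 317.1 and 280.8 CPM, again with control replicate 3 lowest (log2 fold change 0.08, interval -0.10 to 0.25, and 0.0101 without that library). KIF1B, a mitochondrial and vesicle motor, measured 92.5, 93.3 and 91.99 CPM with DDX18, inside the control values of 87.8, 95.5 and 105.1 CPM.

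The other transport motors also overlapped between groups. The endosome motors KIF13A and KIF16B had means of 58.9 ± 2.99 and 9.36 ± 0.595 CPM with DDX18 against 62.6 ± 3.73 and 10.2 ± 0.882 CPM. KIF13B was at 18.03 ± 2.18 and 18.4 ± 1.27 CPM, KIFC2 at 14.1 ± 2.07 and 14.2 ± 1.29 CPM, and the ciliary and dendritic motor KIF17 at 5.26 ± 0.677 and 5.95 ± 0.399 CPM (SD, n = 3).

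Among the other kinesins KIF26A (ENSG00000066735, chr14:104138723-104180894, plus strand) measured 536.2, 536.5 and 546.2 CPM with DDX18 and 532.3, 521.6 and 449.2 CPM in controls. All DDX18 libraries lay above all controls, by a narrow margin except for control replicate 3. The log2 fold change was 0.11 (interval -0.07 to 0.29, edgeR adjusted p = 0.901). It was 0.03 without control replicate 3 and 0.0649 with GC corrected per library.

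KIF7, a regulator of Hedgehog signalling at the ciliary tip, was at 3.35, 4.12 and 3.58 CPM with DDX18 and 3.42, 2.46 and 2.52 CPM in controls (log2 fold change 0.40, interval -0.08 to 0.87, edgeR adjusted p = 0.860). Control replicate 1 lay within the DDX18 range. The exons of KIF7 overlap those of TICRR on the opposite strand by 589 bases, and TICRR had 997.3 mean counts against 51.8 for KIF7. As the strand setting is not given, reads of the pair may not be separable.

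KIF21A, which holds back microtubule growth at the cell cortex, was likewise highest in control replicates 2 and 3, at 27.97, 27.6 and 24.4 CPM with DDX18 and 26.5, 32.7 and 35.3 CPM in controls. The groups overlapped through control replicate 1 (log2 fold change -0.24, interval -0.53 to 0.05, edgeR adjusted p = 0.860), and the value was -0.16 without control replicate 3. KIF24, a centriole protein, was at 12.03, 10.9 and 11.8 against 10.1, 12.2 and 9.85 CPM (log2 fold change 0.11). KIF2A, a depolymerase of spindle poles and neurites, measured 27.3, 24.8 and 23.6 against 22.3, 23.95 and 25.8 CPM (log2 fold change 0.07).

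For KIF24 and KIF2A the groups overlapped. KIF2A shares 428 exonic bases with IPO11 on the same strand. KIF9, a motor of motile cilia, had 5.24 ± 0.809 and 4.13 ± 1.21 CPM and shares 870 exonic bases with its antisense gene KIF9-AS1. KIF9 also overlaps KLHL18 on the opposite strand by 178 exonic bases, with 585.7 mean counts for KLHL18 against 75.2. KIF24 overlaps UBAP1 on the opposite strand by 143 exonic bases, with 991.2 mean counts for UBAP1 against 178.5. As for KIF7, reads of these pairs may not be separable. KIF21B was at 5.85 ± 0.461 and 6.21 ± 0.482 CPM and KIF26B at 1.21 ± 0.287 and 0.982 ± 0.323 CPM.

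**Figure D3:**
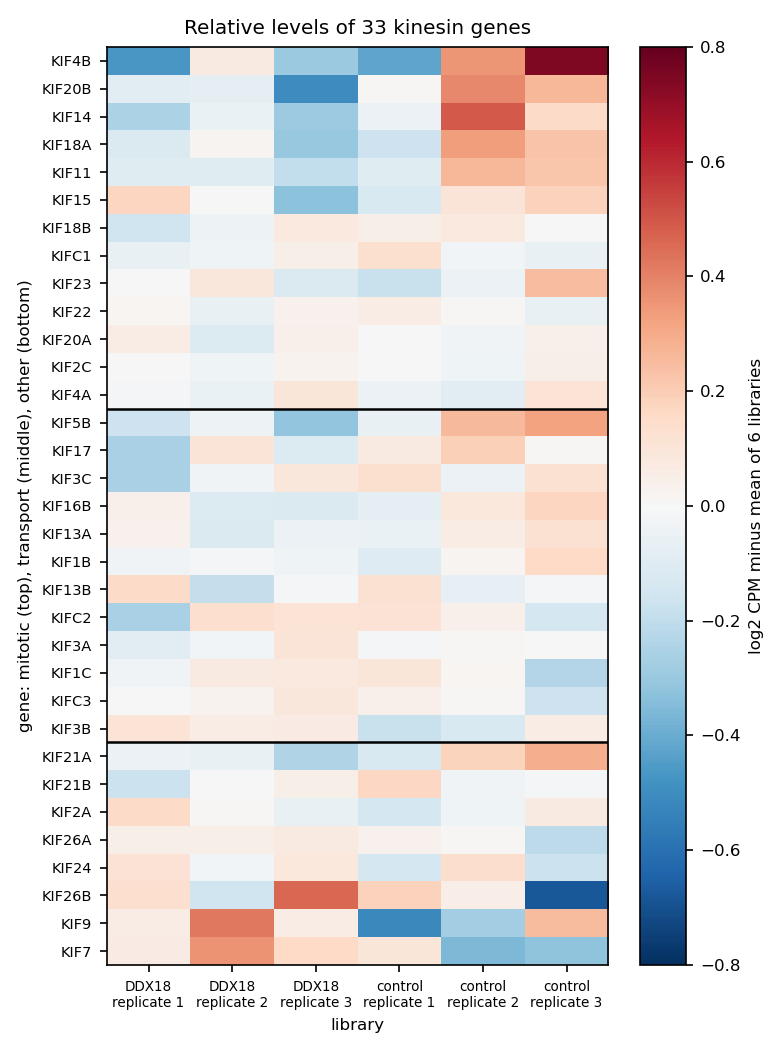
Log2 CPM of each tested kinesin in each library minus the mean of that gene over the 6 libraries, red for higher and blue for lower, with mitotic members at the top. KIF20B, KIF14, KIF18A, KIF11, KIF5B and KIF21A are red in control replicates 2 and 3, while control replicate 1 is pale or blue.

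Mitotic and transport members were then set side by side. Of 13 tested mitotic kinesins 12 had a negative log2 fold change, with a median of -0.08 and a range of -0.61 to 0.02. KIF20A, KIF2C and KIF22 entered that count at -0.01, -0.00 and -0.01. The count was 9 of 13 with scaling by totals alone, on either FPKM scale, without DDX18 replicate 2 and without control replicate 3. It was 11 of 13 with GC corrected per library, 12 of 13 with DESeq2 and limma-voom, and 13 of 13 without control replicate 2. The median was -0.0421 without DDX18 replicate 1 and -0.114 without control replicate 1. Of 12 transport kinesins 8 were negative, with a median of -0.04 and a range of -0.35 to 0.16. The other kinesins were positive in 6 of 8, with a median of 0.11. The median relative level of the mitotic members, log2 CPM minus the mean over libraries, was -0.06, -0.04 and -0.11 in DDX18 replicates 1 to 3 and -0.05, 0.08 and 0.15 in control replicates 1 to 3. Control replicate 1 fell among the DDX18 libraries, so the groups overlapped.

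The transport medians were -0.03, -0.02 and 0.03 with DDX18 and 0.01, 0.02 and 0.03 in controls, which also overlapped. Mitotic minus transport came to -0.04 as a difference of the medians of fold change. The sign of that difference turned without DDX18 replicate 1 (0.0102) or control replicate 2 (0.0043). With KIF2A counted as mitotic rather than other, the difference was -0.0152 and the mitotic median -0.055. Per library, the mitotic minus the transport median relative level was -0.03, -0.02 and -0.14 in DDX18 replicates 1 to 3. In control replicates 1 to 3 it was -0.06, 0.06 and 0.12, so control replicate 1 lay within the DDX18 range. The pooled SD of these library values within groups was 0.0806. The mitotic share of all kinesin counts was 39.5%, 38.3% and 39.1% with DDX18 and 39.4%, 39.8% and 42.6% in controls. The total of all kinesin counts was 50693 to 53321 per library.

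**Figure D4:**
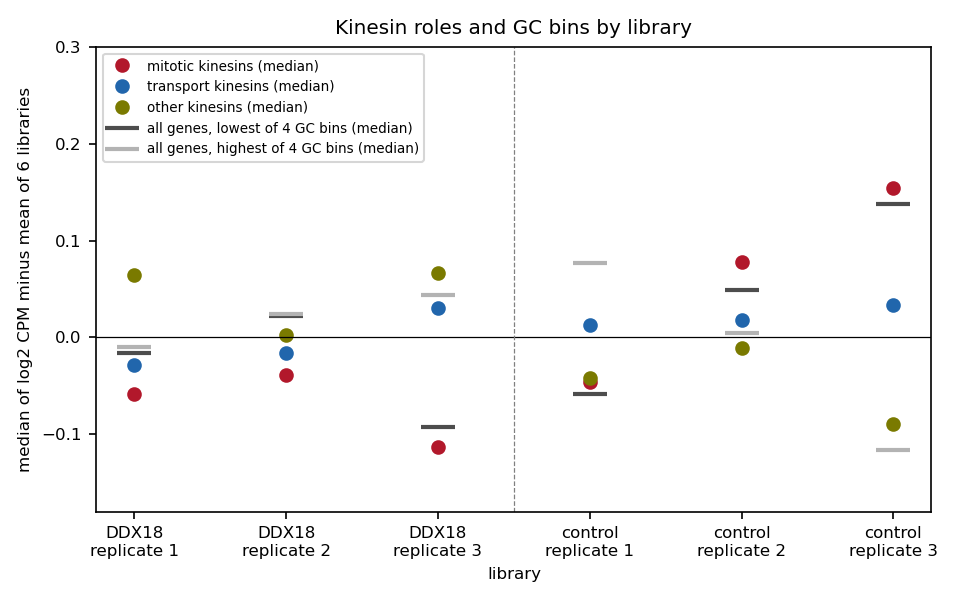
Median of log2 CPM minus the gene's mean over 6 libraries, per library, for mitotic, transport and other kinesins (circles) and for all tested genes in the lowest and highest of 4 equal bins of transcript GC (bars). The mitotic median and the median of the lowest GC bin are both highest in control replicate 3 (0.15 and 0.14) and lowest in DDX18 replicate 3 (-0.11 and -0.09).

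The fold changes were also set beside base composition. The 4 kinesins with an unadjusted p under 0.05 had transcript GC contents of 34.2% (KIF20B), 38.3% (KIF14 and KIF11) and 39.1% (KIF5B), all in the lowest of 4 equal GC bins of tested genes, at most 42.8% GC. In that bin 66.9% of all 3775 genes had a negative log2 fold change, with a median of -0.07, and 8 of its 10 kinesins did, with a median of -0.26. In the highest bin, at least 57.2% GC, 41.7% of all genes and 6 of 9 kinesins were negative, with medians of 0.03 and -0.01.

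As a description across genes, which are not independent replicates, Spearman's rho between GC content and log2 fold change was 0.21 for 15099 genes and 0.50 for the 33 kinesins, all measured in the same 6 libraries. With transcript length in place of GC content, rho was -0.13 and -0.11. Among the 13 mitotic kinesins rho was 0.65 with GC content and -0.64 with transcript length. Among the 12 transport kinesins it was 0.22 and 0.09. The lowest GC bin of all genes had median relative levels of -0.02, 0.02 and -0.09 in the DDX18 libraries and -0.06, 0.05 and 0.14 in the controls. With GC corrected per library, a setting added after seeing the data, the log2 fold changes were -0.27 for KIF20B, -0.32 for KIF14, -0.17 for KIF11 and -0.27 for KIF5B. KIF20B, KIF14 and KIF5B stayed at an unadjusted edgeR p under 0.05 and KIF11 did not, where 6.46% of all genes were under it. The mitotic median was then -0.0541, the transport median -0.0577 and mitotic minus transport 0.0036. The part of base composition in the single values was not tested further.

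**Figure D5:**
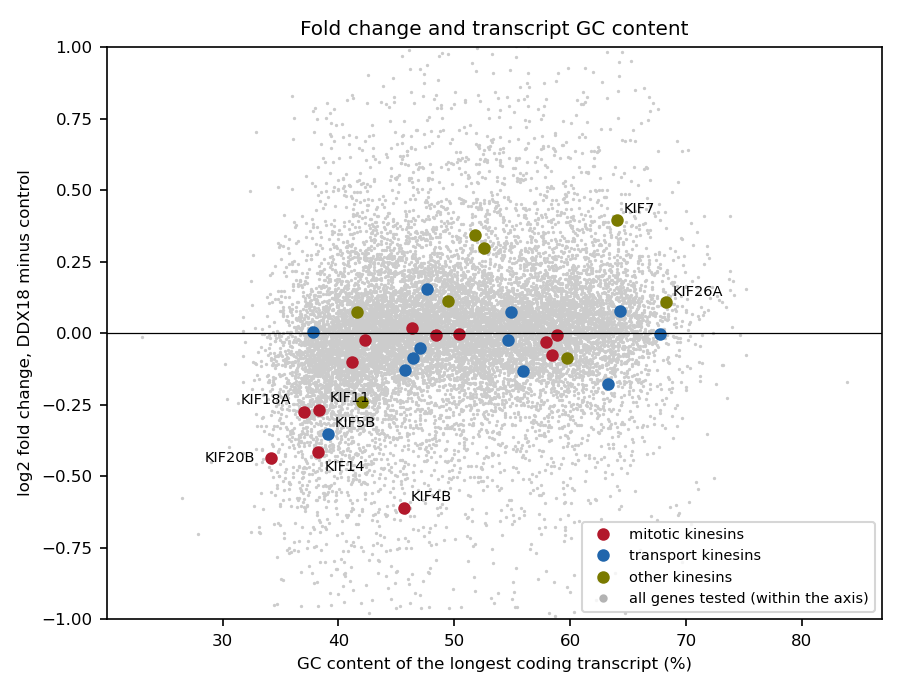
Log2 fold change, DDX18 minus control, against GC content of the longest coding transcript, in percent, for all tested genes within the axis (grey) and the kinesins by role. KIF20B, KIF14, KIF11, KIF18A and KIF5B lie at the low GC end with negative values, while at the high GC end KIF7 and KIF26A are positive and 6 of the 9 kinesins in the highest bin are negative.

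Of the kinesin motors listed under other names, CENPE had a negative and STARD9 a positive log2 fold change. CENPE, the kinetochore motor that carries chromosomes to the metaphase plate, was at 5.52, 5.80 and 5.15 CPM with DDX18 and 6.64, 12.5 and 7.57 CPM in controls. All DDX18 libraries were lower, control replicate 2 stood above the rest, and GC content was 35.3%. The log2 fold change was -0.70 (interval -1.27 to -0.13, edgeR adjusted p = 0.841). STARD9, a centriolar motor, had 9.07 ± 1.05 CPM with DDX18 and 7.97 ± 0.657 CPM in controls, with overlapping groups (log2 fold change 0.19, interval -0.15 to 0.52, edgeR adjusted p = 0.916).

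Genes that work with kinesins were read from lists of textbook partners, and none of them passed the threshold. Of 21 mitotic partners 15 had a negative log2 fold change, with a median of -0.04 against -0.00 for all genes. HMMR, a spindle protein that binds microtubules, had 23.96 ± 2.68 CPM with DDX18 and 31.1 ± 4.64 CPM in controls (log2 fold change -0.38, edgeR adjusted p = 0.841, GC 36.7%). CENPF, at 40.8% GC, had a log2 fold change of -0.37 with groups that did not overlap.

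Of 19 tested light chains and adaptors of transport kinesins, 9 were positive and 10 negative, with a median of -0.00. PLEKHM2, which links lysosomes to conventional kinesin, was at 171.0, 161.8 and 165.4 CPM with DDX18 and 156.3, 151.6 and 147.6 CPM in controls, with no overlap (log2 fold change 0.13, edgeR adjusted p = 0.860). Cytoplasmic dynein and dynactin, the opposing motor and its activator, had 7 positive and 16 negative values among 23 tested members, with a median of -0.04. ACTR1A, the actin-related core of dynactin, was 86.7 to 88.5 CPM in 5 libraries and 160.5 CPM in control replicate 3.

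S-phase genes, read as a second sign of cycling cells, had 5 positive and 10 negative values among 15, with a median of -0.03. MCM7, a subunit of the replicative helicase, was at 438.6, 448.0 and 469.2 CPM with DDX18 and 493.3, 502.4 and 508.1 CPM in controls. The groups did not overlap, and the difference did not pass the threshold (log2 fold change -0.15, interval -0.29 to -0.01, edgeR adjusted p = 0.856). Unlike CENPE, HMMR and CENPF, MCM7 lay in the highest GC bin, at 57.6% GC.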

How the data were processed

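The authors deposited 1 table with raw counts per gene and FPKM values for each library, per the file headers. Libraries were made with a SMARTER mRNA kit, per the labels' protocols. How reads were aligned, counted and assigned to a strand is not given in the sources used here. The submitters' processing notes name GRCm38 and mm10, whereas the table holds human identifiers, so coordinates were read as GRCh38. Of the kinesins, 41 of 42 had the coordinates of GENCODE 29.

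The deposited counts entered edgeR 4.0.16 under R 4.3.3 (filterByExpr, TMM, quasi-likelihood F-test, no covariate), which left 15144 genes. The Benjamini-Hochberg adjustment ran over all of them, and an adjusted p under 0.05 was called. The deposited FPKM served limma 3.58.1 on log2(FPKM + 1) and log2(FPKM + 0.1) as alternatives. Others were DESeq2 1.42.0, limma-voom, other scalings and filters, a replicate block and leaving out libraries. The edgeR step was tested on simulated data. The common coefficient of variation was 15.9%.

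GC content and length are those of the longest coding transcript in GENCODE 29. Library values were named for kinesins with an unadjusted p under 0.05, groups that did not overlap, and, in each role, the 4 highest by CPM and 2 with the smallest p, and KIF18A was added after its values were seen. Members and lists were chosen with earlier results of these data known, and the GC and length corrections after seeing the data.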

Additional observations from a re-analysis of the deposited data

How the results depend on the processing

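Under all 17 alternatives 0 kinesins passed the threshold, with a smallest adjusted p of 0.468 (edgeR, without control replicate 1). The 4 kinesins with an unadjusted p under 0.05 became 7 without control replicate 1, 0 without DDX18 replicate 3 or control replicate 2, 3 with GC correction and 5 with transcript length correction. The count over all genes went from 8 to 4 without an expression filter, 40 with DESeq2, 5 with GC correction and 3 to 14 when single libraries were left out. The mitotic median ran from -0.114 to -0.0421 when libraries were left out and was -0.0509 with a filter of 5 CPM in 3 libraries. The transport median was -0.0188 and -0.0261 on the log2(FPKM + 1) and log2(FPKM + 0.1) scales, -0.0625 without control replicate 2 and 0.0029 with transcript length correction, and with that correction mitotic minus transport was -0.0692.

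The replicate block gave 1 gene over all genes and 3 kinesins (KIF14, KIF20B and KIF5B) at an unadjusted p under 0.05. Same-numbered libraries did not deviate together (correlations of -0.0427, 0.0188 and -0.0868), so no effect shared by number was seen. These values cannot show whether the samples were prepared in pairs.

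Of 288 log2 fold changes of the 17 kinesins named by rule under alternatives, 269 kept their direction. KIF1B turned to 0.0081 with length correction and ran from -0.115 to 0.0106 when libraries were left out, KIF1C from -0.0217 to 0.144, and KIFC1 from -0.0739 to 0.0263. Under totals alone, log2(FPKM + 1) and log2(FPKM + 0.1), KIF20A was 0.008, 0.0062 and 0.0063, KIF22 0.0073, 0.0067 and 0.0069, and KIF2C 0.008, 0.0081 and 0.0082. Leaving out libraries gave -0.0421 to 0.0451, -0.0413 to 0.0227 and -0.0248 to 0.0142 for these 3. Depth limits KIF4B, KIF26B and the 9 untested kinesins.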
